A study of Mus musculus with 24 samples.

Results

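Expression of 6 genes of the superoxide-making NADPH oxidases was described in 24 male mice, 18 days old, each giving 1 array of cortical RNA. The genes were Cybb, Cyba, Ncf1, Ncf4, Rac2 and Nox4. They were chosen by gene symbol, with the brightest probe set on average to stand for a symbol that had several. All 6 were measured, each by 1 probe set, among 22180 genes with a symbol of their own. Their probe set numbers are 17540154 for Cybb, 17513672 for Cyba, 17453288 for Ncf1, 17312700 for Ncf4, 17319037 for Rac2 and 17479974 for Nox4.

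The mice came from 4 strains, SV129, FVB, C57 (C57BL/6JOlaHsd) and C3H. In each strain 3 mice were injected intraperitoneally with CBE from postnatal day 8 to 18, at a daily dose of 25 mg/kg, and 3 with PBS (phosphate-buffered saline) over the same days, which gives 8 groups of 3. CBE is conduritol B-epoxide, an irreversible inhibitor of the lysosomal enzyme glucocerebrosidase. The labels use the CBE mice as a model of nGD, the neuronopathic form of Gaucher disease, and the PBS mice as healthy controls. The model is chemical: no gene is altered, and the inhibitor is given to the whole body. RNA came from a coronal section of 1 mm that held the cortex, so each value is a sum over all cells of the section, in which fewer cells of a type and less RNA per cell cannot be told apart.

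The phagocyte NADPH oxidase moves electrons from NADPH across a membrane to oxygen and so makes superoxide. Its catalytic subunit, gp91phox (NOX2, from Cybb), sits in the membrane with p22phox (from Cyba), and each needs the other to be stable. On activation cytosolic subunits, among them p47phox (Ncf1) and p40phox (Ncf4), and a Rac GTPase join the membrane pair. The enzyme is best known from neutrophils and macrophages, where it kills microbes, and in the brain its main source is microglia, the resident macrophages. Nox4 does not belong to this complex: it is another catalytic subunit of the family, works with p22phox without the cytosolic subunits, and is known from kidney and vessel walls. The group is therefore 5 genes of the phagocyte enzyme and 1 relative.

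All values are log2 array intensities as deposited, and differences are CBE minus PBS on that scale, with the standard error of the fit. The levels of different probe sets are not comparable with each other. The median over all probe sets was 4.18, and Ncf4, Nox4 and the PBS values of Cybb lie near or under it, where an array can shrink a change. Of 7 measured markers of cortical excitatory neurons 6 lay above that median, Slc17a7 (the vesicular glutamate transporter of these neurons) at 11.2. Emx1, a transcription factor of the developing cortex, averaged 4.04 and so lay below it. Of all 22180 genes 12292 lay above the median, so this count cannot check the tissue label. One array stood apart in the genes described here, that of C3H CBE mouse 1, and the values that rest on it are given with and without it.

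CBE raised 2 of the 6 genes in the mean of the 4 strains: Cybb, the catalytic subunit, 2.51-fold, and Rac2, the Rac GTPase of blood cells and microglia, 1.31-fold. Over all genes tested, 0.609% were called higher in this comparison. The membrane partner Cyba and the organiser Ncf1 were higher by 0.37 and 0.27 without passing the test. Ncf4 and Nox4 changed by 0.06 and -0.05. The median change of the 6 genes was 0.32 with all arrays and 0.22 without C3H CBE array 1. That of all genes was -0.01 with all arrays, with 90% of all genes between -0.13 and 0.11. None of the 6 was called lower, as 0.117% of all genes were.

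**Figure D1:**
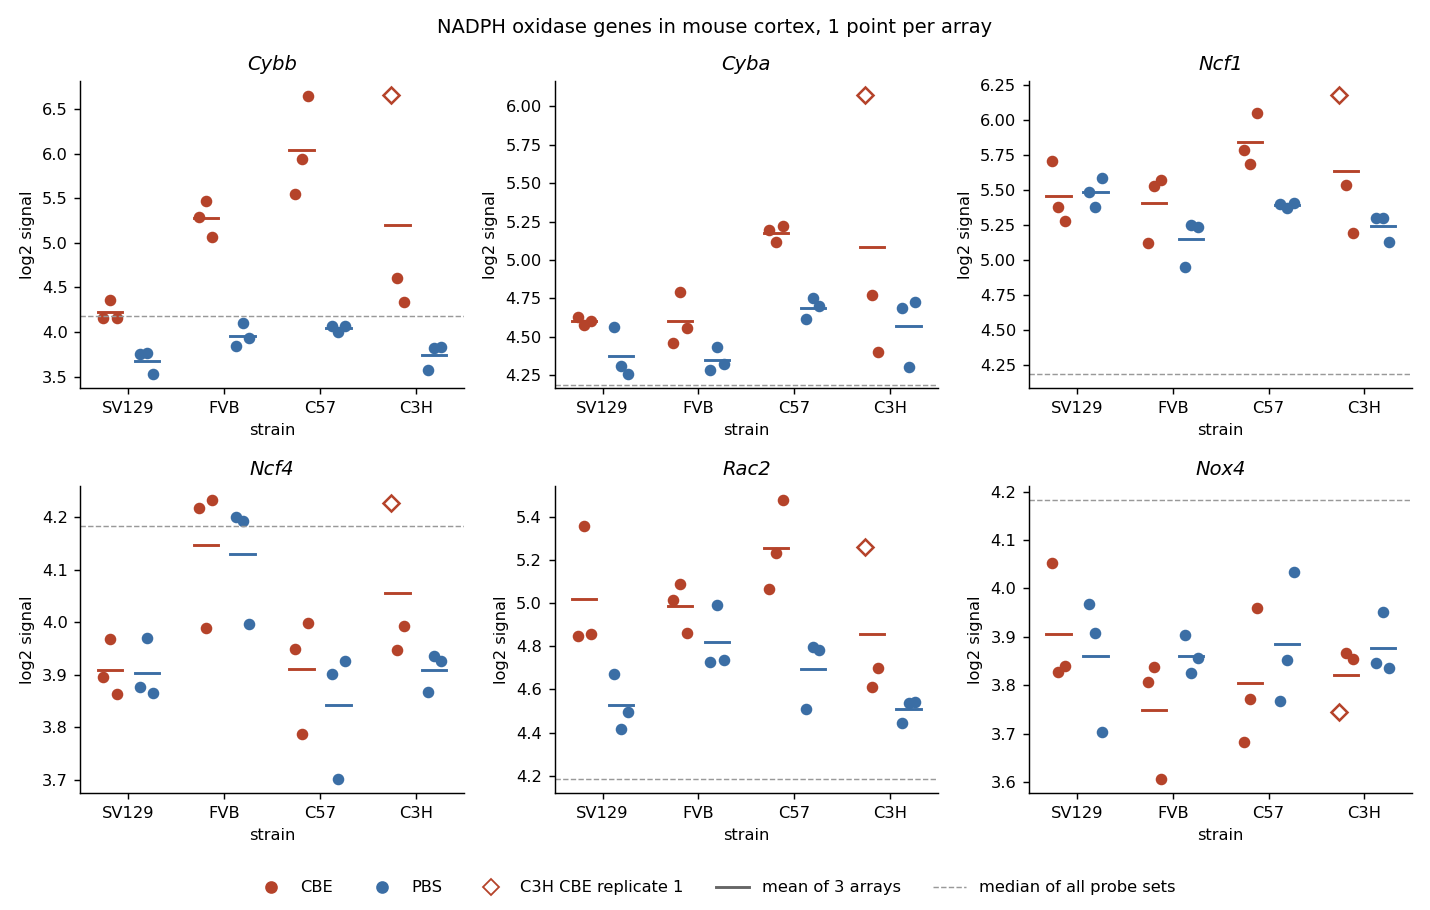
Log2 array value of each of the 6 genes (y axis) in CBE and PBS mice of the 4 strains (x axis). Points are single arrays, 3 per group, and bars are group means; the Cybb values of CBE mice lie above those of PBS mice in every strain, while those of Nox4 overlap in every strain.

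Cybb encodes the subunit that carries out the electron transfer. In C57 mice it had 5.55, 5.94 and 6.65 on the CBE arrays, against 4.06, 3.997 and 4.07 on the PBS arrays. In FVB mice the CBE arrays had 5.29, 5.47 and 5.07 and the PBS arrays 3.85, 4.10 and 3.93. In both strains the lowest CBE array lay well clear of the highest PBS array. In SV129 mice the CBE arrays had 4.16, 4.36 and 4.16, and the PBS arrays 3.75, 3.76 and 3.53. In C3H mice the CBE arrays had 6.66, 4.61 and 4.33, and the PBS arrays 3.58, 3.82 and 3.84. The first C3H CBE array was thus the highest Cybb value of all 24 arrays, and the other two lay close to the SV129 CBE mice. Every CBE array lay above every PBS array in all 4 strains, a pattern that 0.144% of all genes shared.

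The change of Cybb in the mean of 4 strains was 1.33 ± 0.18 (95% interval 0.95 to 1.70, adjusted p = 0.000208 by limma, higher on 12 of 12 CBE arrays than the PBS mean of the strain). It was 1.15 ± 0.091, a 2.21-fold rise, when C3H CBE array 1 was left out (adjusted p = 6.8e-08, with 0.699% of all genes called higher). The call held with each of the 24 arrays left out in turn, with adjusted p of at most 0.000677.

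Within single strains the Cybb call depended on the arrays in the fit. In C57 it rose by 2.0 ± 0.36, which is 4.0-fold, with an adjusted p of 0.00969, and was 1 of the 6 genes called there, against 0.316% of all genes called higher. That call was lost without C57 CBE array 3 (1.70, adjusted p = 0.123), without C57 PBS array 1 (0.0521) or without C57 PBS array 2 (0.06). In FVB the difference was 1.32 ± 0.36 (adjusted p = 0.344), in C3H 1.45 ± 0.36 (0.324) and in SV129 0.54 ± 0.36 (0.56). None of the 6 genes was called by limma in these 3 strains, where 0.135% of all genes were called higher in FVB, 0.0361% in C3H and 0.0135% in SV129. At an unadjusted p under 0.05 there were 1 in FVB (Cybb), 4 in C3H (Cybb, Cyba, Ncf1 and Rac2) and 1 in SV129 (Rac2), beside 6.27%, 5.02% and 13% of all genes in these strains. Without C3H CBE array 1 the C3H count was 1 (Cybb, unadjusted p = 0.00148), beside 3.79% of all genes, with Cyba at 0.915, Ncf1 at 0.425 and Rac2 at 0.317. The counts were then 2 in FVB (Cybb and Cyba), beside 6.54%, and 2 in SV129 (Cybb and Rac2), beside 13.3%.

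The 8 groups share 1 estimate of the spread, and the Cybb values of the C3H CBE group had an SD of 1.27, against 0.04 to 0.56 in the other 7 groups. With C3H CBE array 1 left out, the standard error of a Cybb change within FVB, C57 or SV129 was 0.18. The unchanged estimates of 1.32 in FVB and 2.0 in C57 then had adjusted p of 0.000329 and 5.66e-07, where 0.374% and 0.6% of all genes were called higher. SV129 had an adjusted p of 0.18 and missed the threshold, with 0.0316% of all genes called higher. In C3H the difference was then 0.72 ± 0.20 (95% interval 0.31 to 1.14, adjusted p = 0.865), with the same share of all genes called higher. When array 3 of that group was left out in place of array 1, the C3H difference was 1.89 with an adjusted p of 0.0238.

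The question whether CBE raised Cybb equally in the 4 strains was asked with an F-test. With all arrays it gave an adjusted p of 0.764 (unadjusted 0.0674), and 0.00902% of all genes were called unequal. It gave 0.0454 without C3H CBE array 1 (unadjusted 4.47e-05), where 0.113% of all genes were called. Of the 24 fits that left out 1 array, no other called the Cybb changes unequal. Of the 6 strain pairs, the change in SV129 was 1.46 below that in C57, with adjusted p of 0.42 over all arrays and 0.0131 without C3H CBE array 1. These 2 settings called 0.0361% and 0.203% of all genes for that pair. The remaining 5 pairs missed the threshold in both settings for Cybb, so that of the order C57, FVB, C3H, SV129 without that array only the ends were separated by the test. For these 5 pairs 0% to 0.00451% of all genes were called with all arrays. Without that array 0.0361% were called for SV129 against FVB, 0% for SV129 against C3H, 0.018% for FVB against C57, 0.00902% for FVB against C3H and 0.0271% for C57 against C3H. For the other 5 genes the F-test gave adjusted p of 0.854 to 0.966 with all arrays and 0.76 to 0.991 without that array.

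**Figure D2:**
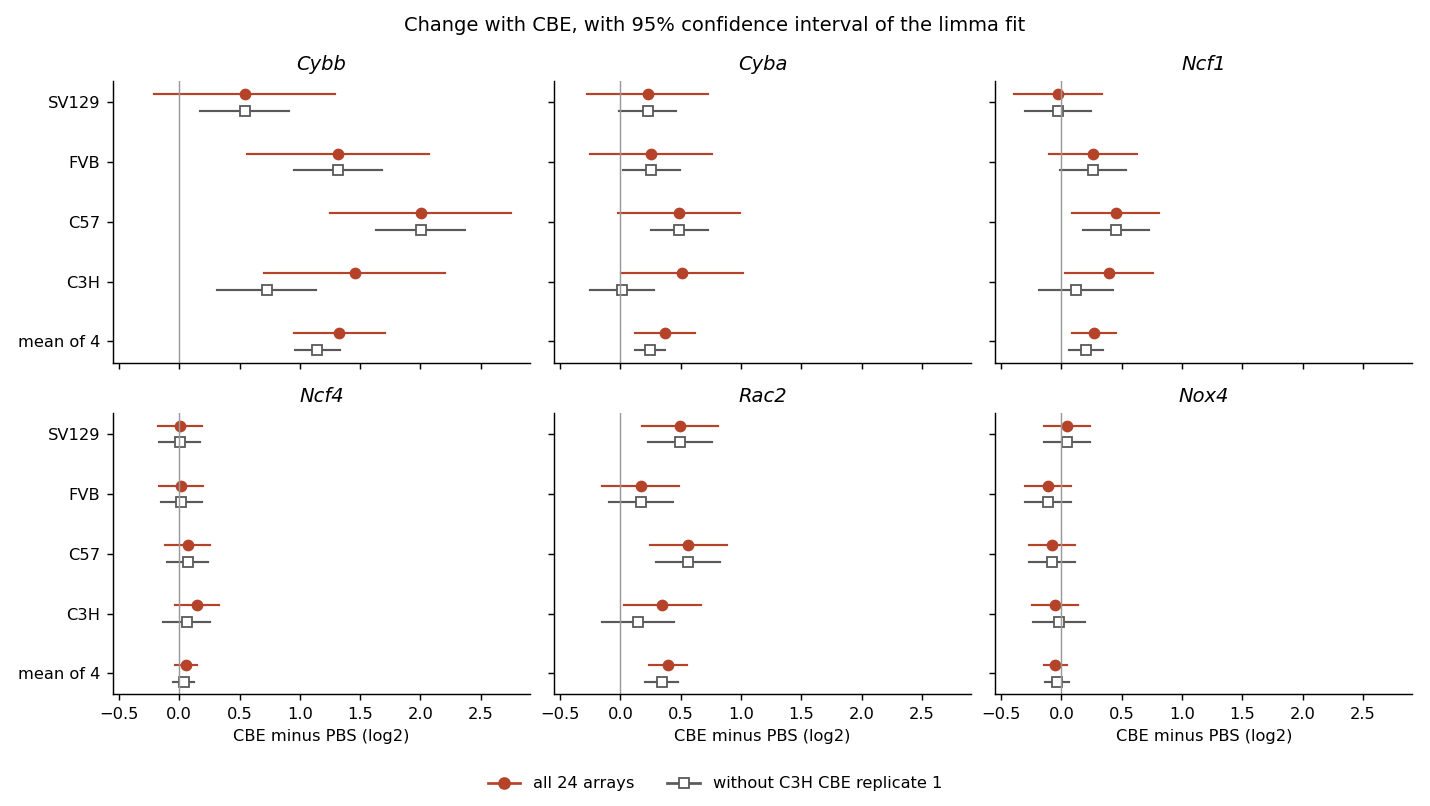
CBE minus PBS (log2, x axis) for each of the 6 genes, in each strain and in the mean of 4 strains, with 95% intervals of the limma fit. Filled and open marks are the fits with all arrays and without C3H CBE array 1; the interval of Cybb in C57 runs from 1.25 to 2.75 with all arrays and lies above 0 in both fits.

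Cyba encodes p22phox, the membrane partner that gp91phox and Nox4 share. In C57 mice it had 5.195, 5.11 and 5.22 on the CBE arrays, against 4.61, 4.76 and 4.70 on the PBS arrays. In SV129 mice the CBE arrays had 4.63, 4.58 and 4.60 and the PBS arrays 4.57, 4.31 and 4.26. Both strains kept the groups apart, in SV129 by a narrow gap. In FVB the CBE arrays had 4.46, 4.79 and 4.56, and the PBS arrays 4.28, 4.44 and 4.32. In C3H the CBE arrays had 6.07, 4.77 and 4.40, and the PBS arrays 4.68, 4.31 and 4.73. The FVB groups did not overlap, whereas in C3H CBE array 1 stood far above and CBE array 3 lay below 2 of the 3 PBS arrays.

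Cyba was higher by 0.37 ± 0.12 in the mean of 4 strains (95% interval 0.12 to 0.62, adjusted p = 0.226, unadjusted 0.00611), and 11 of 12 CBE arrays lay above the PBS mean of their strain, which 1.5% of all genes reached or exceeded. Leaving out C3H CBE array 1 gave 0.25 ± 0.058 with an adjusted p of 0.05 that did not fall below the threshold, and leaving out C3H CBE array 3 gave 0.46 with 0.0269. The C3H difference was 0.51 ± 0.24 with all arrays and 0.01 ± 0.13 without array 1, so it rested on that array. The C57 difference of 0.49 did not rest on it and had adjusted p of 0.874 with and 0.0523 without that array. The differences of 0.23 in SV129 and 0.26 in FVB also missed the threshold.

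The promoters of the membrane pair and of Ncf1 are shown because these genes belong to 1 enzyme while Cybb alone among them passed the test. RefSeq windows of build GRCm38.p6, 250 bases before to 50 after a gene start, were at hand for 4 of the 6 genes, Cybb, Cyba, Ncf1 and Nox4. Each was searched on both strands for a core of the macrophage factor PU.1 (GAGGAA), for the interferon-stimulated response element ISRE (GAAA, any 2 bases, GAAA) and for the gamma-activated site GAS (TTCNNNGAA), with N for any base. Capitals mark the matches, and a run that reads as the reverse complement matches on the other strand. The windows lie at chrX:9469275-9469574 for Cybb, chr8:122432891-122433190 for Cyba and chr5:134229576-134229875 for Ncf1, all on the minus strand. The Cybb window lies inside the RefSeq span of the gene (chrX:9435252-9487766), so the start used for it is not the outermost one.
Cybb: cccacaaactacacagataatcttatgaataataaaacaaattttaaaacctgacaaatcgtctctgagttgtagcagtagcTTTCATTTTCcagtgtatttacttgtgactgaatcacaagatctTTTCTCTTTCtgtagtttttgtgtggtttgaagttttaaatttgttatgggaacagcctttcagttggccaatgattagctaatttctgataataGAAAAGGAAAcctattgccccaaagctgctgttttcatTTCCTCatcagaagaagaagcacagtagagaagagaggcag
Cyba: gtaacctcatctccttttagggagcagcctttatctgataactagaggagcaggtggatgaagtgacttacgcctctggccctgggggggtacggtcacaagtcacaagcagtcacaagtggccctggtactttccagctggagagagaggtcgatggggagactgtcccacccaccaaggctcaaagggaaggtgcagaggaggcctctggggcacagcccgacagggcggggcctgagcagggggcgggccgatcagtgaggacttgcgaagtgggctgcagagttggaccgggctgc
Ncf1: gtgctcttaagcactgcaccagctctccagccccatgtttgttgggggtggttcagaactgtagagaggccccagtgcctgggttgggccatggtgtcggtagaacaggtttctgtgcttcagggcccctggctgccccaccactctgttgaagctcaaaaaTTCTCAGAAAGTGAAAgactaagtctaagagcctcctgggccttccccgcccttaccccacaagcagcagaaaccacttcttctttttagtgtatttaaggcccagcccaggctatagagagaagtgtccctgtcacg
The Cybb window held 3 ISRE matches, starting 168, 124 and 29 bases before the start used, and 1 PU.1 core from base 10 to 15 after it. The Ncf1 window held 1 GAS match that overlapped 1 ISRE match, between 88 and 73 bases before the start. The Cyba window held none of the 3 motifs. The Nox4 window (chr7:87246399-87246698, plus strand) held 1 GAS match, and its sequence is not printed since Nox4 did not pass the test. That window too lies inside the span of its gene (chr7:87244430-87398710). Among 32851 mouse windows of the same length, 28.3% held the PU.1 core, 8.3% the GAS and 3.44% the ISRE. Such matches describe letters and not binding, and their part in the changes was not tested.

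Ncf1 encodes p47phox, the subunit whose phosphorylation starts assembly. In C57 mice it had 5.79, 5.69 and 6.06 on the CBE arrays, against 5.40, 5.38 and 5.41 on the PBS arrays, with no overlap. In SV129 mice the CBE arrays had 5.71, 5.38 and 5.28 and the PBS arrays 5.49, 5.38 and 5.59, which overlapped widely. In FVB the CBE arrays had 5.13, 5.53 and 5.57 and the PBS arrays 4.95, 5.26 and 5.24. In C3H the CBE arrays had 6.18, 5.54 and 5.195 and the PBS arrays 5.31, 5.30 and 5.13. In both strains 1 CBE array lay within the PBS range.

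The mean change of Ncf1 over 4 strains was 0.27 ± 0.087 (95% interval 0.09 to 0.45, adjusted p = 0.224, unadjusted 0.00583), with 8 of 12 CBE arrays above the PBS mean. It was 0.20 without C3H CBE array 1 (adjusted p = 0.27) and 0.32 without C3H CBE array 3 (0.0432). By strain the difference was 0.45 in C57 (adjusted p = 0.702), 0.39 in C3H, 0.26 in FVB and -0.03 in SV129. The C3H value was 0.12 without array 1, and the sign in SV129 turned with the normalization.

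Ncf4 encodes p40phox, which binds a phosphoinositide of the phagosome membrane. It had 3.79 to 4.23 over the 12 CBE arrays and 3.70 to 4.20 over the 12 PBS arrays. Its values in C3H were 4.23, 3.95 and 3.99 with CBE and 3.87, 3.94 and 3.93 with PBS, the only strain without overlap, and there by a narrow margin. The mean change was 0.06 ± 0.044 (95% interval -0.03 to 0.15, adjusted p = 0.695), and no strain passed, with differences of 0.15 in C3H, 0.07 in C57, 0.02 in FVB and 0.005 in SV129. With C3H CBE array 1 left out, the C3H difference was 0.06 and the mean change 0.04 (adjusted p = 0.839). The sign in SV129, FVB and C57 turned when single arrays were left out. The upper bound of 0.15 lies below the estimate for Rac2, and the probe set lies at the low end of the scale.

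Rac2 encodes the Rac protein of blood-derived cells, which switches the assembled oxidase on. In C57 mice it had 5.07, 5.23 and 5.48 on the CBE arrays, against 4.51, 4.80 and 4.78 on the PBS arrays. In SV129 mice the CBE arrays had 4.85, 5.36 and 4.86 and the PBS arrays 4.67, 4.42 and 4.50. The groups did not overlap in either strain. In C3H the CBE arrays had 5.26, 4.61 and 4.70 and the PBS arrays 4.45, 4.54 and 4.54, again apart, by a narrow margin. In FVB the CBE arrays had 5.02, 5.09 and 4.86 and the PBS arrays 4.73, 4.99 and 4.74, with 1 array of each group inside the range of the other.

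Rac2 rose by 0.39 ± 0.076 in the mean of 4 strains (95% interval 0.23 to 0.55, adjusted p = 0.0095), and 12 of 12 CBE arrays lay above the PBS mean of their strain, as for 0.546% of all genes. The rise was 0.34 ± 0.066 without C3H CBE array 1 (adjusted p = 0.00798), and over the 24 arrays left out in turn the adjusted p was at most 0.0259. No single strain passed with all arrays: the differences were 0.56 in C57 (adjusted p = 0.224), 0.49 in SV129 (0.163), 0.35 in C3H (0.958) and 0.17 in FVB (0.927). When C3H CBE array 1 was left out, the C57 difference passed (0.0456) and the C3H difference was 0.15. Unlike Cybb, whose SV129 difference was the smallest of the 4 strains, Rac2 had its smallest difference in FVB with all arrays, and in C3H once that array was left out. Its changes were not called unequal between strains.

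Nox4 encodes a catalytic subunit that makes mainly hydrogen peroxide and needs no cytosolic partner. Its values ran from 3.61 to 4.05 over the CBE arrays, with a median of 3.83, and from 3.70 to 4.03 over the PBS arrays, with a median of 3.86. The groups overlapped in all 4 strains, and 2 of 12 CBE arrays lay above the PBS mean of their strain. The mean change was -0.05 ± 0.046 (95% interval -0.15 to 0.05, adjusted p = 0.768). By strain it was -0.11 in FVB, -0.08 in C57, -0.06 in C3H (-0.02 without array 1) and 0.05 in SV129. As for Ncf4, the probe set lies below the median of all probe sets in every group.

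Counted by strain, 4 of the 6 genes had all CBE arrays above all PBS arrays in C57 (Cybb, Cyba, Ncf1 and Rac2), where 5.82% of all genes had this pattern. In SV129 there were 3 (Cybb, Cyba and Rac2; 6.52% of all genes), in C3H 3 (Cybb, Ncf4 and Rac2; 4.5%) and in FVB 2 (Cybb and Cyba; 5.09%). The median difference of the 6 genes was 0.47 in C57, 0.37 in C3H, 0.21 in FVB and 0.14 in SV129, while the median of all genes lay between -0.012 and -0.003 in each strain. The C3H median of the 6 genes was 0.09 once array 1 was left out.

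The levels of PBS mice addressed whether the strains differ without the inhibitor. For Cybb the PBS means were 4.04 ± 0.04 in C57, 3.96 ± 0.13 in FVB, 3.75 ± 0.15 in C3H and 3.68 ± 0.13 in SV129 (SD, n = 3 each), and no pair of strains differed by the fit. The 6 pairs of PBS groups had 3.88% (SV129 and FVB), 7.72% (SV129 and C57), 2.34% (SV129 and C3H), 7.91% (FVB and C57), 2.28% (FVB and C3H) and 6.7% (C57 and C3H) of all genes called. Cyba ran from 4.69 in C57 over 4.57 in C3H and 4.38 in SV129 to 4.35 in FVB, and Ncf1 from 5.49 in SV129 over 5.40 in C57 and 5.25 in C3H to 5.15 in FVB. Rac2 ran from 4.82 in FVB over 4.70 in C57 and 4.53 in SV129 to 4.51 in C3H, and Nox4 only from 3.89 to 3.86. The F-test of equal PBS groups gave adjusted p from 0.395 to 0.996 for these 5 genes with all arrays, where 13% of all genes were called. C3H CBE array 1 enters the shared estimate of the spread, and without it the test gave 0.102 (Cyba) to 0.995 (Nox4). No pair of strains passed for these 5 genes in either setting. The lowest adjusted p by limma was 0.0699, for Cyba between FVB and C57 without that array. Ncf4 had 4.13 ± 0.12 in FVB, 3.91 in C3H, 3.90 in SV129 and 3.84 ± 0.12 in C57. Its F-test gave an adjusted p of 0.107 with all arrays and 0.075 without C3H CBE array 1. Of its 6 strain pairs, FVB exceeded C57 by 0.29 (adjusted p = 0.0492 with all arrays and 0.0335 without that array). This call was lost in 19 of 24 fits that left out 1 array, with adjusted p of up to 0.231.

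**Figure D3:**
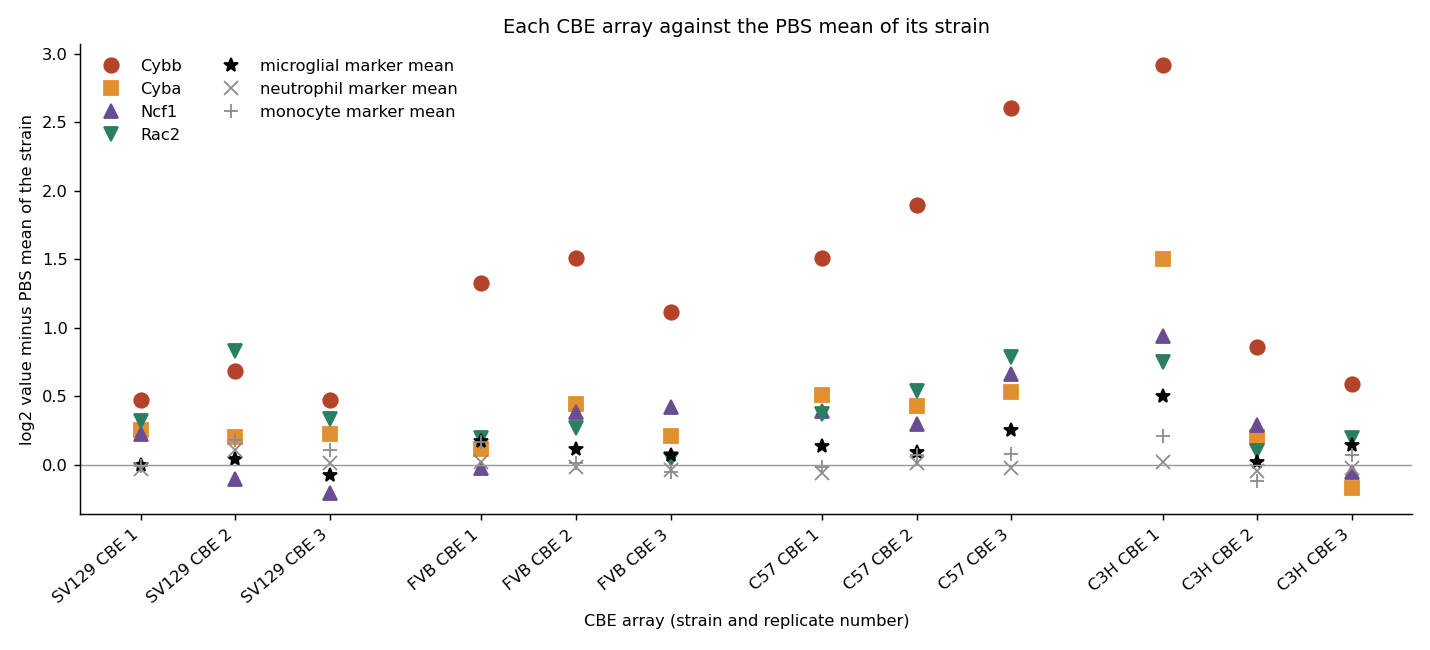
Difference of each CBE array from the PBS mean of its strain (log2, y axis) for Cybb, Cyba, Ncf1 and Rac2 and for the mean of the microglial, monocyte and neutrophil marker lists, by strain. C3H CBE array 1 lies at 2.91 for Cybb and 0.50 for the microglial markers, above the other 11 CBE arrays in both.

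C3H CBE array 1 exceeded the PBS mean of its strain by 2.91 for Cybb, 1.503 for Cyba, 0.94 for Ncf1 and 0.75 for Rac2. C3H CBE arrays 2 and 3 lay at 0.86 and 0.59 for Cybb, at 0.20 and -0.17 for Cyba, at 0.29 and -0.05 for Ncf1, and at 0.10 and 0.19 for Rac2. On the same array the mean of the 11 measured microglial markers was 0.50 above its PBS mean, against -0.08 to 0.25 on the other 11 CBE arrays. The monocyte markers were 0.21 above, against -0.12 to 0.18 on the other 11 CBE arrays, and the neutrophil markers 0.02 above. Some lists of other cells were high there too. The astrocyte markers were 0.25 above, against -0.02 to 0.14 on the other 11 CBE arrays, and the endothelial markers 0.26 above, against -0.27 to 0.29. The border macrophage markers were 0.16 above and the pericyte and muscle markers 0.01 above. The neuronal and lymphocyte markers differed by -0.04 and -0.03. The part of these cells in the values of that array was not tested.

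Markers of cells that make the oxidase were read beside the subunits. Of 11 microglial markers 1 rose, beside 0.609% of all genes called higher. It was Csf1r, the receptor for the growth factor on which microglia depend, at 0.29 ± 0.065 (adjusted p = 0.0334). This call was lost in 12 of 24 fits that left out 1 array. The median marker changed by 0.11, and without C3H CBE array 1 by 0.10. At an unadjusted p under 0.05, 4 of the 11 were higher and 0 lower, beside 10.7% of all genes in either direction, and without that array 2 were higher, beside 9.93%. The mean of the list ran from 6.53 to 6.69 in CBE and 6.36 to 6.53 in PBS mice of C57, and from 6.39 to 6.49 in CBE and 6.25 to 6.35 in PBS mice of FVB. It ran from 6.40 to 6.88 in CBE and 6.33 to 6.47 in PBS mice of C3H, and from 6.10 to 6.23 in CBE and 6.04 to 6.36 in PBS mice of SV129. CBE and PBS ranges lay apart in C57, just, and in FVB, and overlapped in C3H and SV129. The part of these cells in the rise of Cybb was not tested.

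Neutrophils carry the same enzyme, and 0 of their 11 markers averaged above the median of all probe sets, as 12292 of all 22180 genes did. Their mean stayed within 3.50 to 3.67 on all 24 arrays, and none passed the test; Camp, an antimicrobial peptide of their granules, changed by 0.07 and Ly6g, a surface marker, by -0.10. Of 6 monocyte markers none passed, with Plac8 at 0.20 (adjusted p = 0.0889) and Fn1, fibronectin, at 0.11. Of 7 markers of border macrophages none passed, with Ms4a7 at 0.17 and the scavenger receptor Cd163 at 0.11. All 9 lymphocyte markers averaged below the median of all probe sets and none passed, with Cd3g at 0.06 and Nkg7 at 0.06. Low values of neutrophil and lymphocyte markers do not show that these cells were absent. Over these 4 lists no marker was called by limma, with or without C3H CBE array 1. At an unadjusted p under 0.05, which 10.7% of all genes reached, there were 0 neutrophil, 1 monocyte, 2 border macrophage and 0 lymphocyte markers. The border macrophage count was 1 without C3H CBE array 1.

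Markers of other cells in the section gave no call in the mean of 4 strains. In vessel cells, 0 of 7 endothelial markers passed, with Flt1 at 0.15 and Tek at -0.14, and 0 of 8 pericyte and muscle markers, with Myh11 at 0.14 and Acta2, smooth muscle actin, at 0.11. Acta2 was called in C57 alone among the strains (0.86, adjusted p = 0.0322), a call lost in 4 of 24 fits that left out 1 array. Of 7 neuronal markers none passed, with Tbr1 at -0.08 and Neurod6 at -0.13, and of 6 astrocyte markers none, with the water channel Aqp4 at 0.25 (adjusted p = 0.274) and Aldh1l1 at 0.08. At an unadjusted p under 0.05 there were 0 endothelial, 1 pericyte or muscle, 0 neuronal and 1 astrocyte marker, beside 10.7% of all genes in either direction.

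The rest of the pathway was read from 3 lists. Among 19 measured activators and regulators of the phagocyte oxidase 1 rose and none fell, beside 0.609% of all genes called higher and 0.117% lower. It was Vav1, the exchange factor that loads Rac with GTP in blood cells, at 0.39 ± 0.091 (adjusted p = 0.0489). This call was lost in 18 of 24 fits that left out 1 array, with adjusted p of up to 0.108, while without C3H CBE array 1 the change was 0.30 with 0.00512. By strain Vav1 differed by 0.77 in C57, 0.49 in FVB, 0.34 in C3H and -0.06 in SV129. Leaving out C3H CBE array 1 let another gene pass, Itgb2, the beta chain of the integrin that binds complement-coated particles, at 0.36 (0.0274), against 0.51 (0.181) with all arrays; it is named after its values were seen. That setting called 2 of the 19 higher, beside 0.699% of all genes. The median of the list was 0.11 with all arrays and 0.08 without that array, beside -0.01 for all genes. At an unadjusted p under 0.05, 9 of the 19 were higher and 1 lower, beside 10.7% of all genes in either direction. Without that array 8 were higher and 1 lower, beside 9.93%.

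A further 3 genes of these lists were picked for their role after their values were seen. Rac1, the Rac protein found in all cells, changed by 0.01 at a mean level of 10.96. Cybc1, a chaperone that gp91phox needs to mature, changed by -0.05 (adjusted p = 0.888). Nrros, which limits the oxidase by promoting loss of gp91phox, changed by 0.15 (0.371). Of these none passed the test.

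The list of other oxidase family genes had 9 measured members and 0 calls, with a median of -0.02. Duox2, a peroxide-making oxidase of epithelia, changed by -0.05 and Noxa1, the activator subunit of the NOX1 oxidase, by 0.06. Enzymes that handle superoxide and peroxide had 17 measured members and 0 calls, with a median of -0.01. Hmox1, the haem-degrading enzyme induced by oxidative stress, was at 0.32 (adjusted p = 0.127) and Txnrd1, thioredoxin reductase, at -0.10 (0.452). At an unadjusted p under 0.05 the family list had 0 genes and the superoxide and peroxide list had 2, Hmox1 higher and Txnrd1 lower. Of all genes 10.7% reached this in either direction. No gene of either list was called by limma with or without C3H CBE array 1.

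**Figure D4:**
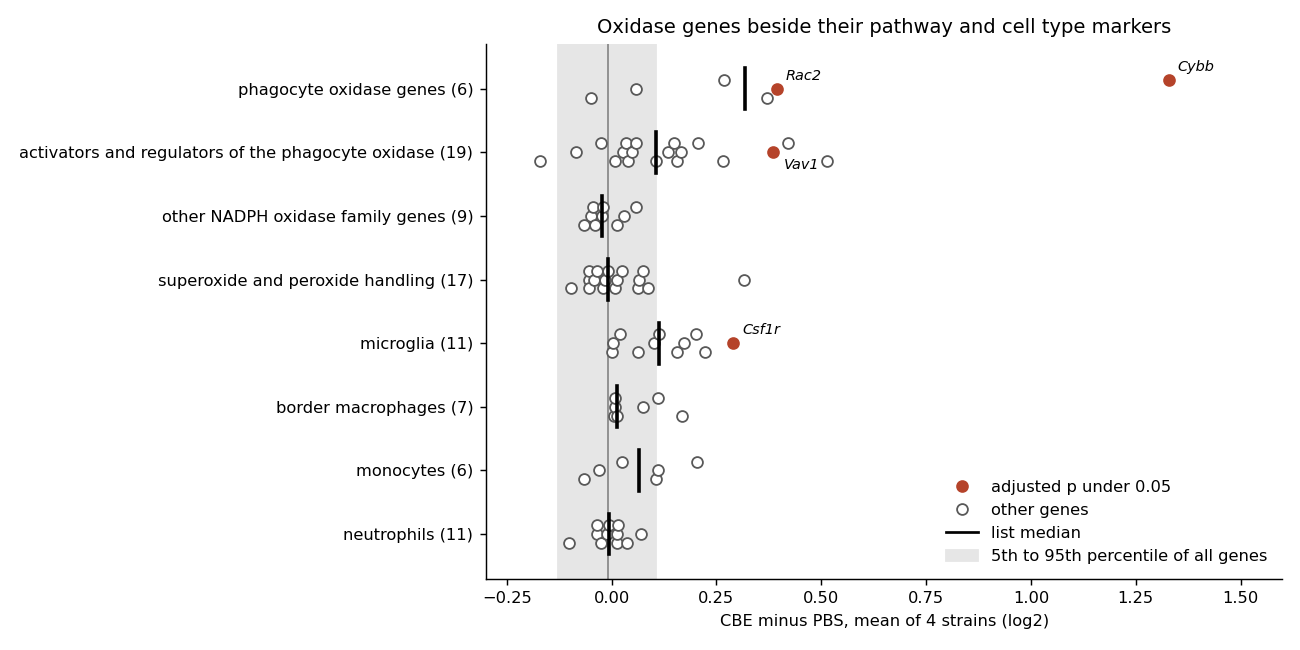
CBE minus PBS in the mean of 4 strains (log2, x axis) for every measured gene of the phagocyte oxidase group, of the 3 pathway lists and of the microglial, border macrophage, monocyte and neutrophil markers (y axis). Each point is a gene, filled where its adjusted p is under 0.05; Cybb lies at 1.33, beyond every other gene shown.

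Genes with the pattern most like that of Cybb were sought by the root-mean-square difference over the 24 arrays, after each gene was centred on its own mean. Cybb itself deviated from its mean by 0.91 on this measure. The closest was Irf7, a transcription factor of the interferon genes, at 0.25, followed by the chemokine Ccl3 at 0.32, the leukocyte surface protein Cd52 at 0.33, the ubiquitin ligase Rnf213 at 0.34 and the antiviral membrane protein Ifitm3 at 0.35. Irf7 changed by 1.89 in C57, 1.39 in C3H, 1.25 in FVB and 0.48 in SV129, while Cybb changed by 2.0 in C57, 1.45 in C3H, 1.32 in FVB and 0.54 in SV129. All 5 rose in the mean of 4 strains, by 0.93 to 1.63, where 0.609% of all genes were called higher. They kept the call in all 24 fits that left out 1 array. They were picked for likeness to Cybb on these same arrays, so their rise and strain order follow largely from that choice.

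Rac2 deviated from its own mean by 0.29, and the closest genes were less close in proportion. They were the adaptor Abi3 at 0.18, the TNF receptor Tnfrsf1a at 0.19, the lipoprotein receptor Tlr2 at 0.20, the immunoproteasome subunit Psmb8 at 0.20 and the interferon-induced Ifi35 at 0.20. Of these Tlr2, Psmb8 and Ifi35 rose, by 0.35, 0.47 and 0.43, while Abi3 was at 0.23 (adjusted p = 0.1) and Tnfrsf1a at 0.26 (0.158). Likeness was taken over the same arrays for all genes and describes these 24 mice. A rise among the genes closest to Rac2 likewise follows in part from how they were picked.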

How the data were processed

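The authors deposited log2 values of 41034 probe sets on each of 24 arrays. Partek and RMA are named per the submitters' processing notes, with no versions; the genome build of the arrays is not given in the sources used here. That the logarithm is to base 2 was inferred from the largest value: 14.09 would correspond to an intensity of 17442, under the scanner limit of 65535. Scanner files were not used here. Platform annotation, possibly outdated, supplied the symbols: 23521 probe sets had 1 symbol, 1814 several and 15699 none, and the highest-mean probe set per symbol left 22180 genes.

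Contrasts were fitted with limma 3.58.1 in R 4.3.3 on all 24 arrays, with 1 mean per group, 16 residual degrees of freedom and a prior of 5.1. Tests were two-sided, with Benjamini-Hochberg adjustment over 22180 genes within a contrast and a threshold of 0.05. The procedure was tested on simulated data. Array medians ran from 4.14 to 4.22; the number of arrays limits the precision.

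The 6 genes and the lists were chosen with earlier results of these data known. Named from each list were up to 4 called genes, or else the 2 with the lowest p, and also the 5 genes closest to each called gene. Some genes of the lists are not reported here.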

Additional observations from a re-analysis of the deposited data

Results flagged for a closer look

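The 4 strains had unequal changes of Cybb by the F-test once C3H CBE array 1 was left out (adjusted p = 0.0454), against 0.764 with all arrays. The changes were then 2.0 in C57, 1.32 in FVB, 0.72 in C3H and 0.54 in SV129. Of the 24 fits that left out 1 array, this was the only 1 with the call, and adjusted p reached 0.952. In settings added after the data were seen, which also left out that array, the adjusted p was 0.0452 after centring each array on its median, 0.0351 without dim probe sets, 0.0251 with an intensity trend and robust spread, 0.0413 with the replicate block and 0.0651 after quantile normalization, so 4 of 5 kept the call. The SV129 minus C57 contrast of -1.46 stayed past the threshold in all 5, with adjusted p of 0.00869 to 0.0187. All 5 settings left out the array with the highest Cybb value of the 24, so they are not separate tests of unequal changes. Of the 24 fits that left out 1 array, the SV129 minus C57 contrast too passed only without C3H CBE array 1, with adjusted p of up to 0.65.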

How the results depend on the processing

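For the 30 changes of the 6 genes (4 strains and their mean), 859 of 884 values under alternatives kept their direction and their side of the threshold. Of the other 25, 15 turned sign, none of a called value. Leaving out an array cannot alter the estimate in another strain, so much of this agreement was fixed in advance. Only Cybb and Rac2 in the mean of 4 strains and Cybb in C57 were called, so most values kept their side by staying uncalled. The Cybb call in C57 was lost in 3 of the 24 fits that left out 1 array. The calls of Cybb and Rac2 in the mean of 4 strains held in every alternative run, with Cybb at 1.15 to 1.44 and Rac2 at 0.34 to 0.42 over single arrays left out.

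The labels do not say that replicate numbers pair mice, and no pairing was assumed. Deviations of same-numbered CBE and PBS arrays of a strain correlated at -0.193 to 0.196, with 3 of 12 over 0.1. Low correlations cannot exclude a pairing, and same-numbered arrays of different strains were not compared. With the replicate block, Cybb had 1.33 (adjusted p = 0.000528) and Rac2 0.39 (0.0169), and no call of the 6 genes changed.

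With each strain fitted alone, Cybb in FVB passed (1.32, adjusted p = 0.00254), as did Cyba in C57 (0.49, 0.0274). Ncf1 in SV129 turned to 0.032 after quantile normalization. Ncf4 in SV129 turned to -0.002 with arrays centred on their median and to -0.037 after quantile normalization. The call of Ncf4 between FVB and C57 in PBS mice was lost after quantile normalization (0.0735) and with an intensity trend (0.0622). The cause was not tested.

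Genes called in SV129 numbered 25, but 14 after quantile normalization, 60 without dim probe sets, 39 with an intensity trend and 4 with the strain alone. FVB had 30 and 58 with the strain alone; C3H had 8, 13 with the trend and 0 with the strain alone. Unequal changes numbered 2, 4 without dim probe sets and 1 with the trend.

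With single arrays left out, genes called ranged from 132 to 244 in the mean of 4 strains (244 without C3H CBE array 3), 7 to 219 in SV129 (219 without PBS array 1), 25 to 85 in FVB and 30 to 136 in C57 (85 and 136 without C3H CBE array 1), 3 to 52 in C3H (52 without CBE array 3), and 0 to 25 for unequal changes (25 without C3H CBE array 1). Of the 6 genes, 2 to 4 were called higher. Cybb ranged from 1.22 to 1.42 in FVB, 1.70 to 2.25 in C57 and 0.72 to 1.89 in C3H. Cyba ranged from 0.25 to 0.46 and Ncf1 from 0.20 to 0.32 in the mean of strains, both passing at their highest, without C3H CBE array 3. Rac2 in C57 ranged from 0.45 to 0.66. Values that turned sign ranged from -0.157 to 0.06 for Ncf1, -0.025 to 0.038 for Ncf4 and -0.032 to 0.1 for Nox4 in SV129, and for Ncf4 from -0.05 to 0.095 in FVB and -0.002 to 0.131 in C57.

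A filter on probe sets below 4.18 kept 12292 genes and left out Ncf4 and Nox4. Each of the 6 genes had 1 probe set, so no other was tried. Low values limit what Ncf4, Nox4 and the PBS level of Cybb show. Background correction and scan date were not varied, since scanner files were not used here.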
